A study of Mus musculus with 7 samples.

Results

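The genes described here encode the factors that start and extend protein synthesis, together with the poly(A)-binding proteins. They were taken as the protein-coding genes of GENCODE mouse release M21 (mm10) whose symbol starts with Eif, Eef or Pabp, which gave 78 of 22028 protein-coding genes. Some carry the prefix without being a translation factor, such as the kinases of eIF2 and the methyltransferases of eEF1A. Of the 14054 positions at which Argonaute was crosslinked to RNA, 75 lay in 27 of these genes on the same strand, and 6 of the 394 distinct sites deposited as matches to miR-216a or miR-216b lay in 5 of them.

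The RNA came from CD-1 mouse retinas taken at postnatal day 0, kept as explants for 24 h in medium to which 4-thiouridine (0.1 mM) and horse serum (20%) were added, and then exposed to ultraviolet light of 365 nm at a dose near 300 mJ/cm2. This is PAR-CLIP, in which the light links the modified uridines to a protein that touches them. Of the 7 libraries, each from 6 pooled retinas, 5 were made with monoclonal antibody 2A8 against Argonaute and 2 with a mouse IgG1 isotype control. The tables pool the Argonaute libraries. Column 5 of the crosslink table, here the score, is the number of Argonaute libraries that share a position, from 2 to 5. The values of single libraries and of the IgG libraries were not analysed here, so nothing was tested against the spread between libraries, and the reads behind a position are unknown. All 6 of the retinal genes Rorb, Neurod1, Pax6, Neurod4, Onecut2 and Casz1 had crosslinks. Of 7 marker genes of other ocular cells 2, Kdr and Pdgfra, did, beside 22.1% of all protein-coding genes. Because the gene lists were chosen with earlier results of these data known, these counts are no independent check of the tissue.

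Translation begins when eIF4E binds the cap of an mRNA, the eIF4G scaffold joins it to the helicase eIF4A and to the poly(A)-binding protein on the tail, and a ribosomal subunit carrying eIF2, eIF3, eIF1A and eIF5 scans to the start codon. Elongation factors then bring in charged tRNAs and move the ribosome. Argonaute loaded with a microRNA pairs through the seed with target mRNAs, lowers their translation and shortens their tails, most often from sites in the 3′ UTR. In PAR-CLIP the crosslinked T commonly sits next to the sequence that pairs with the seed.

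The microRNAs whose matches matter below are shown from RefSeq (GRCm38.p6, the mm10 assembly), 5′ to 3′, with bases 2 to 8, the seed, in capitals. They are shown because the matches printed after them pair with these seeds.
miR-216a-5p: uAAUCUCAgcuggcaacuguga
miR-216b-5p: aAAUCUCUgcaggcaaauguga
let-7a-5p: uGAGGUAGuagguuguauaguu
miR-17-5p: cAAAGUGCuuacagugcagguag
miR-9-5p: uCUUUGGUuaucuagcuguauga
miR-182-5p: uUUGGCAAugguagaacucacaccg
miR-96-5p: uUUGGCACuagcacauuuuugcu
miR-26a-5p: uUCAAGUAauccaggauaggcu
miR-218-5p: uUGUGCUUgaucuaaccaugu
miR-125b-5p: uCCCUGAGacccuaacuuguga
The seeds of miR-182 and miR-96 differ only in their last base, so a target can match most of both. The other seeds in this set are distinct from these and from each other, except that miR-216a and miR-216b also share all but the last base.

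A match is called a 7mer-m8 when it pairs with bases 2 to 8 of the microRNA and an 8mer when an A also follows it. A 7mer-A1 pairs with bases 2 to 7 and is followed by A, a 6mer pairs with bases 2 to 7 alone, and an offset 6mer pairs with bases 3 to 8. A match was counted as just after the crosslink when it was a 7mer-m8 or 8mer whose leading base lay from 1 nt before to 3 nt after the crosslinked T. There were 35 families searched beside miR-216. The families miR-124, miR-140, miR-1, miR-133 and miR-122 were not searched, and the shares of positions with a match do not cover them.

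Such a match stood at 11 of the 67 exonic positions in these genes. The 9 of them outside Eif1a are given next as 25 nt of the spliced transcript in mm10, 5′ to 3′, with the crosslinked T as base 11 and the match in capitals, because they give the pairing behind the counts that follow.
Eif4g2, chromosome 7, 111072332, minus strand, miR-17: actgtagagatGCACTTTgctcagt
Eif4g2, chromosome 7, 111072215, minus strand, let-7: tgcctgtatttCTACCTCtagtaat
Eif5, chromosome 12, 111543556, plus strand, miR-182: caaaagaacTTGCCAAAgagattcg
Eif4enif1, chromosome 11, 3242498, plus strand, miR-9: ccagccgttatACCAAAGAacaaga
Eif5b, chromosome 1, 38053018, plus strand, miR-17: atcactatcatGCACTTTgcaaata
Eif2s1, chromosome 12, 78885531, plus strand, miR-26: gcctgttaactTACTTGAAagcagt
Eif4ebp2, chromosome 10, 61433690, minus strand, miR-96: cccctctggGTGCCAAAtaatggga
Eef2, chromosome 10, 81180881, plus strand, miR-218: agtcccccaatAAGCACAAccggct
Pabpc1, chromosome 15, 36598971, minus strand, miR-125: gctggactgCTCAGGGtgccagacc
In the windows of Eif4g2, Eif4enif1, Eif5b, Eif2s1 and Eef2 the match begins on the base right after the crosslinked T. In those of Eif5, Eif4ebp2 and Pabpc1 it begins 1 nt before the crosslinked T, so that the T lies inside the match. The other matches, of miR-183 and miR-15/16, were in Eif1a.

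The 6 sites deposited for miR-216 are given with the paired bases in capitals, the crosslinked T being base 12 and base 13 in the Eif4g2 windows, base 7 in those of Eif5 and Eef2, base 21 in that of Eif3c and base 20 in that of Eif4ebp1. They are printed to show how short most of the pairing is.
Eif4g2, chromosome 7, 111072332 to 111072337: tactgtAGAGATgcactt
Eif4g2, chromosome 7, 111074510 to 111074515: atgttgGAGATTttggaag
Eif5, chromosome 12, 111543562 to 111543568: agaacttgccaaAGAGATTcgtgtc
Eif3c, chromosome 7, 126557490 to 126557495: gaagccAGAGATgtggcagatgtgcct
Eif4ebp1, chromosome 8, 27275096 to 27275101: acaattTGAGATggacatttaaggga
Eef2, chromosome 10, 81181109 to 81181114: cctgaaTGAGATcaagga
Only the site of Eif5 was a 7mer-m8, to miR-216b. The Eif4g2 site at 111074510 was a 6mer of both microRNAs. The remaining 4 were offset 6mers, of miR-216b in Eif4g2 and Eif3c and of miR-216a in Eif4ebp1 and Eef2.

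A crosslink was present in 27 of the 78 genes (34.6%, exact 95% interval 24.2 to 46.2), beside 22.1% of all protein-coding genes. Intervals here are Clopper-Pearson intervals and cover counting error only; positions in 1 gene are not independent, and because a position is listed when 2 or more libraries hold it, a gene with more RNA and a gene bound more often cannot be told apart. The 27 genes had a median of 2 positions, the same as the 4867 crosslinked protein-coding genes. There were 8 genes with 1 position (29.6%, beside 45.6% of all crosslinked genes) and 6 with 4 or more, namely Eif4g2, Eef2, Eif3c, Eif4g3, Eif1a and Eif5b. Eif4g2 had 14, and 48 of the 4867 genes had more.

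**Figure D1:**
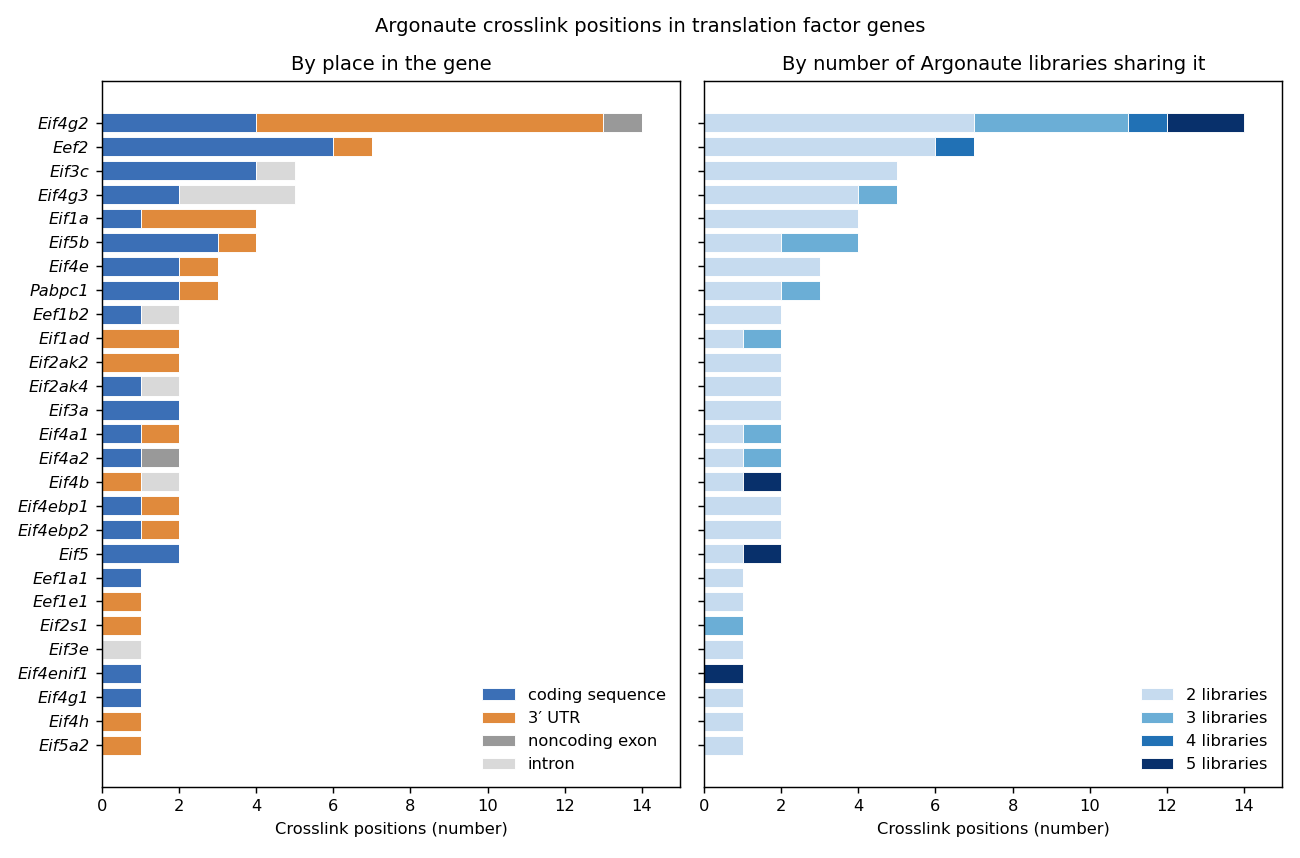
Crosslink positions in the 27 translation factor genes that had any, 1 bar per gene, with the number of positions on the horizontal axis. The left panel divides each bar by place in the gene and the right panel by the number of Argonaute libraries that share the position; Eif4g2 has the longest bar with 14 positions, and positions in all 5 libraries are in Eif4g2, Eif4b, Eif5 and Eif4enif1.

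Many of these positions lay in coding sequence. Coding sequence held 37 of the 75 positions (49.3%, 37.6 to 61.1), beside 20.9% of all positions, and 3′ UTRs held 28 (37.3%, 26.4 to 49.3), beside 52.1%. Introns held 8 (10.7%, 4.72 to 19.9), beside 17.9%, and noncoding exons held 2 (2.67%), beside 4.44%. No position lay in a 5′ UTR, beside 0.761% of all positions. A count of 0 among 75 allows a share of up to 4% by the limit of 3 counts, and the exact interval reaches 4.8%. That interval includes the share over all positions, so the absence does not set these genes apart. Since the genes were chosen as protein-coding genes, none of their positions could be intergenic, so coding sequence was also set against 3′ UTRs alone. It then had 37 of 65 positions in these genes (56.9%, 44.0 to 69.2) and 28.6% (27.7 to 29.5) over the whole table. Without Eif4g2 and Eef2, the 2 genes with the most positions, coding sequence held 27 of 54 positions (50%, 36.1 to 63.9). Among positions in 3 or more libraries it held 7 of 19 (36.8%, 16.3 to 61.6), beside 17.7% of all such positions. Left without the positions whose surrounding 21 nt also occur in another annotated gene, it held 29 of 65 (44.6%, 32.3 to 57.5). The share of all positions with the same filter is not given here, so 44.6% has no like value beside it.

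**Figure D2:**
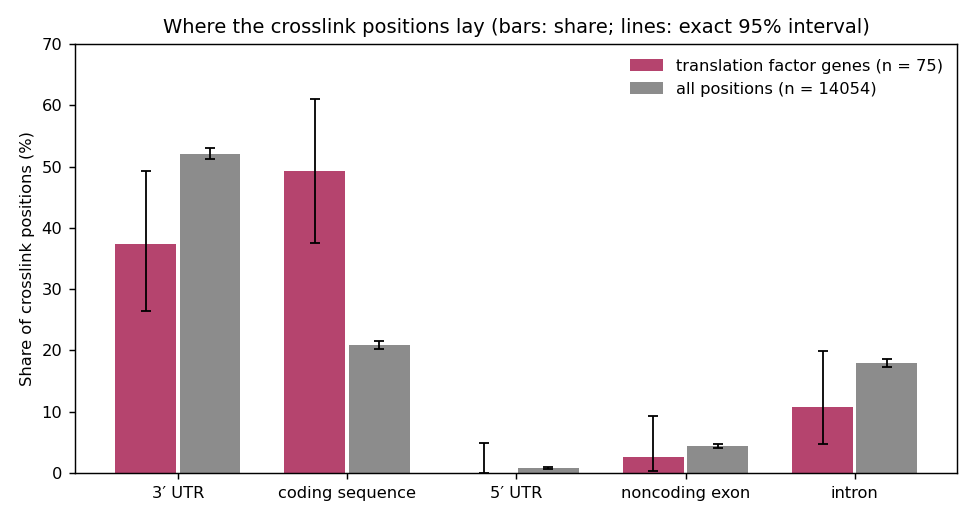
Share of crosslink positions by place in the gene, in percent, for the 75 positions of the translation factor genes and for all 14054 positions, with exact 95% intervals as lines. The bar for coding sequence stands at 49.3% in the translation factor genes and at 20.9% over all positions, and the order is the opposite for 3′ UTRs, at 37.3% and 52.1%.

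The same was seen gene by gene. Of the 27 genes, 19 had a position in coding sequence (70.4%, 49.8 to 86.2), beside 37.1% of the 4750 protein-coding genes that keep a position when each is given to 1 gene. A 3′ UTR position was present in 16 (59.3%, 38.8 to 77.6), beside 68.3%. In 10 genes the coding sequence and not the 3′ UTR was crosslinked (37%, 19.4 to 57.6; 18.5% of all), in 7 the reverse held (25.9%; 49.7% of all), and 9 had both. Per length, the crosslinked translation factor genes had 0.733 positions per kb of coding sequence and 0.605 per kb of 3′ UTR. All crosslinked genes had 0.283 and 0.735. The rate in coding sequence was thus above that of the 3′ UTR in these genes and below it over all genes. No test of these differences was made, since the genes were chosen as a list with earlier results known.

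The 28 positions in 3′ UTRs lay a median of 439 nt after the stop codon (21 to 4079), beside 961 nt over all 3′ UTR positions, in UTRs of similar median length (2575 and 2592 nt). Of them 16 (57.1%, 37.2 to 75.5) were within 500 nt of the stop codon, beside 31.4% of all 3′ UTR positions. The count includes 6 of the 9 positions in the 3′ UTR of Eif4g2.

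Recurrence over libraries was near that of the table as a whole. There were 56 positions in 2 libraries, 12 in 3, 2 in 4 and 5 in all 5. Thus 19 of 75 (25.3%, 16 to 36.7) were in 3 or more, beside 25.6% of all positions, and 7 (9.33%) were in 4 or 5, beside 9.81%. The 5 in all libraries (6.67%, 2.2 to 14.9; 3.47% over the table) were in Eif4g2, which had 2, and in Eif4b, Eif5 and Eif4enif1. In 3′ UTRs 10 of 28 (35.7%) were in 3 or more libraries and in coding sequence 7 of 37 (18.9%), beside 32.9% and 21.7% over the table.

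**Figure D3:**
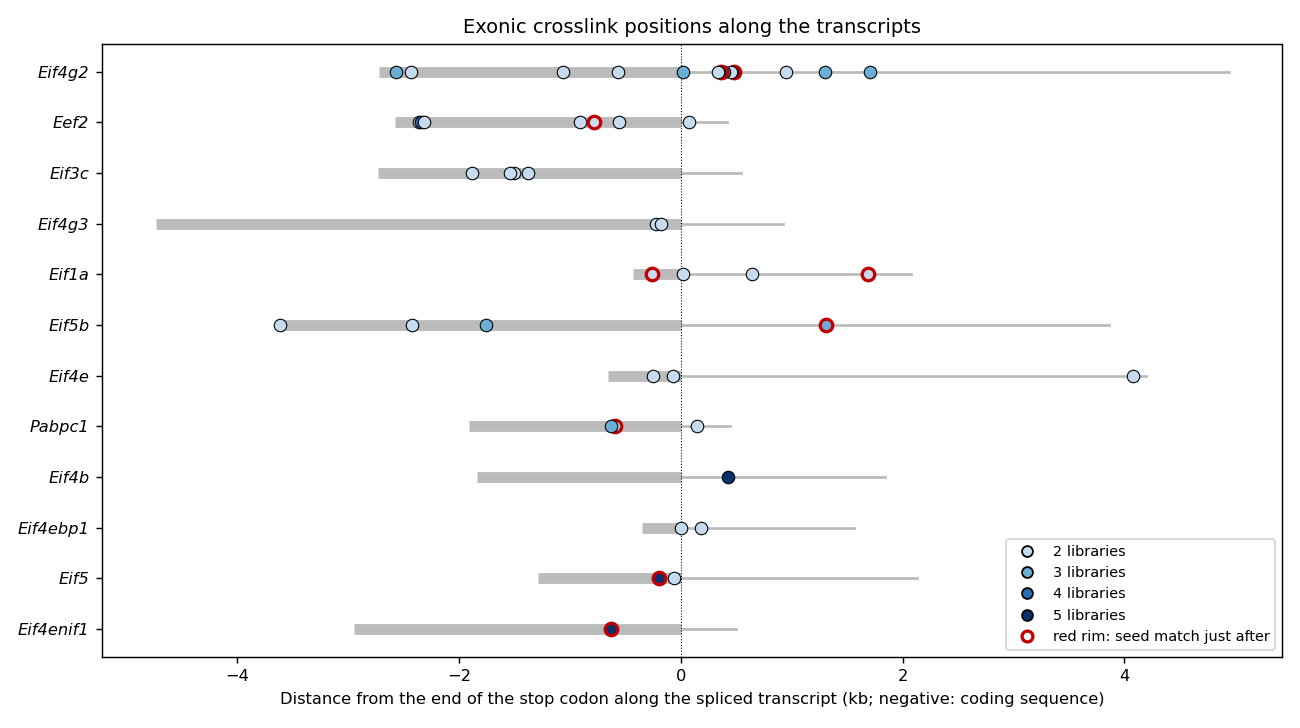
Exonic crosslink positions along the spliced transcripts of the genes with at least 3 positions, a position in 4 or 5 libraries or a miR-216 site, as distance from the end of the stop codon in kb (thick line, coding sequence; thin line, 3′ UTR). Darker points are shared by more libraries, and a red rim marks a seed match just after the crosslink; Eif4g2 has a group of points between 332 and 477 nt after its stop codon, whereas those of Eef2 and Eif3c lie mostly or entirely in coding sequence.

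The eIF4G scaffolds held 20 of the 75 positions and were the only role group with crosslinks in all its members (3 of 3). Eif4g2 (ENSMUSG00000005610.17, chromosome 7, 111067750 to 111083030, minus strand) encodes a scaffold related to eIF4G that lacks the part that binds eIF4E. It had 9 positions in its 4942 nt 3′ UTR (exon 22 of 22 of ENSMUST00000162415.8), 4 in coding sequence and 1 in a noncoding exon. Of the 9, the positions 332, 360, 386, 456 and 477 nt after the stop codon stood close together, with 28, 26, 70 and 21 nt between neighbours. They were found in 2, 5, 4, 2 and 5 libraries, so the 2 that all libraries share have less recurrent ones beside and between them.

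The position at 360 nt, in all 5 libraries, was followed at once by the 7mer-m8 to miR-17 shown above, and the 6 bases that end on its crosslinked T were an offset 6mer of miR-216b. The seed match to miR-17 and the miR-216b match therefore lay side by side without overlapping. The position at 477 nt, also in all 5 libraries, was followed by the 7mer-m8 to let-7. The position between them at 386 nt, in 4 libraries, had no 7mer-m8 just after it. It had a 7mer-A1 of miR-25/92 starting 3 nt after the crosslink, and a 7mer-m8 of miR-26 that started 9 nt before it.

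Further along the same UTR, the positions at 23, 1301 and 1703 nt were in 3 libraries and that at 950 nt in 2, and none had a 7mer-m8 just after it. In coding sequence the Eif4g2 position in exon 4 was in 3 libraries, and those in exons 5, 17 and 19 were in 2. The position in exon 19, at 111074509, followed directly on the 6mer GAGATT that both miR-216a and miR-216b can pair with. Per kb, Eif4g2 had 1.82 positions in its 3′ UTR and 1.47 in coding sequence. Without Eif4g2 the other 26 genes had 0.46 per kb of 3′ UTR and 0.691 per kb of coding sequence.

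Eif4g1, the main scaffold of cap-dependent initiation, had 1 position, in coding sequence in exon 9 of 32 (chromosome 16, 20679457), in 2 libraries. Eif4g3, a close relative of Eif4g1, had 5, of which 3 were intronic and 2 lay near the end of the coding sequence, 46 nt apart on the spliced transcript. An intronic position of Eif4g3, at 138087949 on chromosome 4, was the only intronic position in these genes in 3 libraries; the rest of its positions were in 2. None of the exonic positions of Eif4g1 and Eif4g3 had a 7mer-m8 just after it.

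In the role group for scanning and start codon recognition, 4 of 9 genes had crosslinks, with 12 positions. The group was drawn broadly and also holds Eif1ad, Eif2a, Eif2d and Eif5b. Eif5 (ENSMUSG00000021282.17, chromosome 12, 111538016 to 111546752, plus strand) encodes the protein that triggers GTP hydrolysis by eIF2 at the start codon. It had 2 positions, both in coding sequence. The position at 111543556, in exon 11 of 12 of ENSMUST00000166123.8 and at base 1095 of 1290 coding bases, was in all 5 libraries. In the printed window an 8mer of miR-182 starts 1 nt before the crosslink. Its bases also include a 7mer-A1 of miR-96 starting at the crosslink and a 7mer-A1 of miR-9 starting 2 nt after it. The 7mer-m8 to miR-216b started 6 nt after the crosslink, so it overlapped the miR-182 match by 1 base. The 6mer of miR-216a started 7 nt after the crosslink, past the end of the miR-182 and miR-96 matches. Matches to these microRNAs thus stood side by side or partly overlapped, and the crosslink alone does not tell them apart. The other Eif5 position, at 111544554 in exon 12, was in 2 libraries and had an offset 6mer of miR-9 right after it.

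Eif5b, whose product joins the ribosomal subunits, had 4 positions, in 2, 2, 3 and 3 libraries. The 3 in coding sequence (exons 2, 6 and 11 of 24) had no seed match just after them. The fourth, 1305 nt into the 3′ UTR and in 3 libraries, was followed by the same 7mer-m8 to miR-17 as the position of Eif4g2 at 360 nt. Eif1a, encoding a factor that binds the small subunit during scanning, had 4 positions on chromosome 18, all in 2 libraries. The 1 in coding sequence had an 8mer of miR-183 and that 1689 nt into the 3′ UTR had a 7mer-m8 of miR-15/16, both starting 1 nt after the crosslink. Eif1ad, which encodes a protein with an eIF1A-like domain, had 2 positions in its 3′ UTR, in 2 and 3 libraries, with no match of the searched families just after either. Eif1, Eif1ax, Eif1b, Eif2a and Eif2d had no listed position.

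The eIF2 complex, which carries the initiator tRNA, and its exchange factor eIF2B had crosslinks in 1 of 9 genes. Eif2s1, encoding the subunit that is phosphorylated under stress, had a single position 615 nt into its 3′ UTR, in 3 libraries, followed by an 8mer of miR-26. Of the 4 kinases that phosphorylate it, 2 had crosslinks, with 4 positions that were all in 2 libraries. Eif2ak2, the kinase activated by double-stranded RNA, had 2 near the end of its 3′ UTR, at 2300 and 2508 of 2575 nt. The latter had a 7mer-A1 of both miR-96 and miR-182 starting at the crosslink. Eif2ak4, the kinase that senses uncharged tRNA, had 1 in an intron and 1 in exon 25 of 39.

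The eIF3 complex, the largest initiation factor, had crosslinks in 3 of 14 genes, and none of its 8 positions lay in a 3′ UTR or in more than 2 libraries. Eif3c had 4 positions in coding sequence and 1 in an intron, Eif3a had 2 in coding sequence, and Eif3e had 1 in an intron. In Eif3c the 2 positions in exon 12 of 21 stood 35 nt apart. The miR-216b site of Eif3c ended 9 nt before the upstream one of these, at 126557481. Neither Eif3a nor Eif3c had a 7mer-m8 of the searched families just after a crosslink.

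The cap-binding branch was crosslinked at Eif4e and at 3 of the 4 genes for proteins that bind eIF4E. Eif4e itself had 3 positions, all in 2 libraries, with 2 in coding sequence and 1 at 4079 nt of a 4192 nt 3′ UTR. Eif4e1b, Eif4e2 and Eif4e3 had none. Eif4enif1 (ENSMUSG00000020454.17, chromosome 11, 3202392 to 3244588, plus strand) encodes the transporter of eIF4E, which also takes it to processing bodies. Its single position, at base 2325 of 2952 coding bases in exon 17 of 19 of ENSMUST00000179770.7, was in all 5 libraries and was followed by the 8mer of miR-9.

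Eif4ebp1 and Eif4ebp2 encode the repressors that keep eIF4E from eIF4G, and each had 1 position in coding sequence and 1 in the 3′ UTR, in 2 libraries. The coding position of Eif4ebp1 was base 352 of 354, counted with the stop codon, and so fell on the base that opens the stop codon. Its miR-216a match ended 8 nt upstream of that crosslink. The 3′ UTR position of Eif4ebp2, close after its stop codon, had the 8mer of miR-96 shown above and, within it, a 7mer-A1 of miR-182.

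Of the 5 genes for the helicase eIF4A and its helpers, 4 had crosslinks. Eif4b, whose product stimulates eIF4A, had the only position in all 5 libraries with no match of 6 bases or more, of the families searched, just after it. It lay 422 nt into the 3′ UTR in exon 15 of 15 (chromosome 15, 102095755, plus strand), and its window is shown with the crosslinked T as the only capital.
Eif4b: ttacctgaatTtacctgaataaatt
The 8 bases TACCTGAA occur once before and once after that T. The other Eif4b position was intronic. Eif4h, another helper of eIF4A, had 1 position in its 3′ UTR, and both were in 2 libraries. Eif4a3 had none.

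Eif4a1 and Eif4a2 encode near-identical helicases and were crosslinked at corresponding bases of exon 6 of 11, at coding base 555 in Eif4a1 and 561 in Eif4a2. The 41 nt centred on the 2 positions were identical at 37 bases (90.2%). They are printed as 30 nt with the crosslinked T as base 13 and the differing bases in lower case.
Eif4a1, chromosome 11, 69668713, minus strand, 3 libraries: GGAtGAAGCAGATGAAATGTTaAGCCGAGG
Eif4a2, chromosome 16, 23110274, plus strand, 2 libraries: GGAcGAAGCAGATGAAATGTTgAGCCGAGG
The longest identical run was 17 nt. The 21 nt around the Eif4a1 position were also present in 5 annotated processed pseudogenes. How reads with more than 1 possible origin were placed is not given in the sources used here, so the source of these 2 positions is uncertain. No match of the searched families lay just after either. Eif4a1 had a further position 214 nt into its 3′ UTR, in 2 libraries, and Eif4a2 had 1 in a noncoding exon.

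Over all 67 exonic positions, the 21 nt around 10, in 7 genes, occurred in another annotated gene. The share of such positions over the whole table is not given here, so this count does not set these genes apart. In 8 of them, in Eef2, Eif4a1, Eif4e, Eif5 and Pabpc1, the other genes were processed pseudogenes. No such copy was found for any of the 5 positions in all libraries. There were 3 positions that lay within small nucleolar RNA genes that sit inside the host genes on the same strand. Snord2 (23108953 to 23109021) held the Eif4a2 position at 23108971, in 3 libraries, Gm23262 held the Eif4g2 position at 111076126 and Gm26457 the Eef1b2 position at 63178729, both in 2. For these the crosslinked RNA may be the host transcript or the small RNA, which cannot be told apart.

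The elongation factors had crosslinks in 4 of 8 genes, and 8 of their 11 positions lay in coding sequence. Eef2 (ENSMUSG00000034994.10, chromosome 10, 81176631 to 81182498, plus strand), which moves the ribosome along the mRNA, had 6 in coding sequence and 1 in its 416 nt 3′ UTR, or 2.33 and 2.4 per kb. Its most recurrent position, at 81178066 at coding base 232 of 2577, was in 4 libraries and had no match of the searched families just after it. Positions in 2 libraries stood 18 nt before and 25 nt after it on the spliced transcript, the former across the junction of exons 2 and 3.
Eef2: catctccctcTtctacgagctctct
The window of that position is given with the crosslinked T in capitals. The Eef2 position at 81180881, in 2 libraries, had the 8mer of miR-218, and that at 81181109, also in 2 libraries, was itself the leading base of the miR-216a match. The 21 nt around the latter also occur in the processed pseudogenes Gm13050 and Gm5702, so this site is uncertain in origin.

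Eef1a1, which delivers charged tRNAs, and Eef1b2, its exchange factor, each had 1 position in coding sequence, and Eef1e1, a part of the multi-synthetase complex, had 1 in its 3′ UTR, all in 2 libraries. Eef1a2, Eef1d, Eef1g and Eefsec had none. The 6 genes for the kinase of eEF2 and for the methyltransferases of elongation factors had none either. Of the 3 genes for eIF5A and eIF6, Eif5a2 had 1 position 167 nt into its 3′ UTR, in 2 libraries.

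Of 9 poly(A)-binding protein genes, Pabpc1, the main cytoplasmic form, had crosslinks. Positions in 3 and in 2 libraries lay 34 nt apart in exon 9 of 15, and the other position, in 2 libraries, lay 141 nt into the 439 nt 3′ UTR. The downstream one of the pair, at 36598971, had the 7mer-m8 of miR-125. Since the 21 nt around both coding positions also occur in the processed pseudogenes Gm16580 and Gm8276, this match is uncertain in origin.

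Seed matches just after the crosslink were present at 11 of the 67 exonic positions (16.4%, 8.49 to 27.5), beside 25.6% of the 10988 exonic positions with sequence. Neither share covers the families that were not searched, miR-124 among them, and their matches need not be equally common in both sets. In 3′ UTRs the share was 6 of 28 (21.4%; 28.2% over the table) and in coding sequence 5 of 37 (13.5%; 22.1%). Among positions in 3 or more libraries it was 6 of 18 (33.3%, 13.3 to 59.0; 38.5%), and among those in 2 libraries 5 of 49 (10.2%, 3.40 to 22.2; 20.1%). The 11 matches belonged to 10 families. Of these, miR-17/20/93 occurred at 2 positions (2.99%, beside 2.66% of all exonic positions) and the others at 1 (1.49% each). Over the table the shares of those other families ran from 0.0091% (miR-218) to 2.36% (miR-15/16). The miR-218 match of Eef2, in 2 libraries, was the only match of that family just after a crosslink among all 10988 exonic positions. Of the 11, 8 started 1 nt after the crosslink and 3 started 1 nt before it. With matches of 6 bases or more included, 22 of 67 positions had one (32.8%, 21.8 to 45.4), beside 43.3%.

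**Figure D4:**
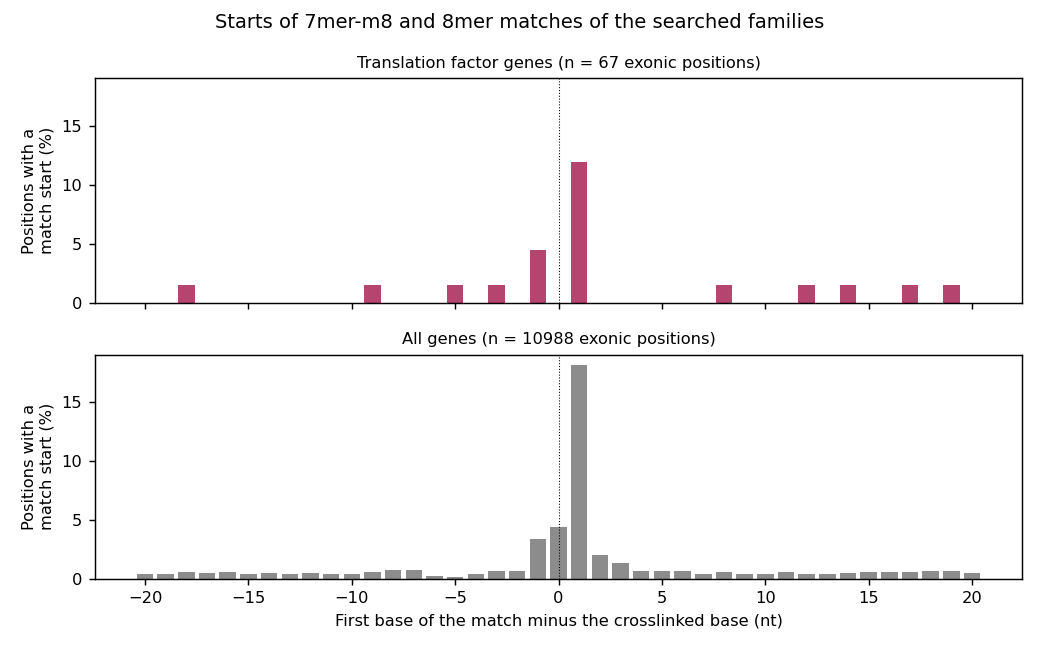
Percent of exonic crosslink positions at which a 7mer-m8 or 8mer match of the 35 searched families starts at each distance from the crosslinked base, in nt, for the translation factor genes (top) and all genes (bottom). The highest bar is at 1 nt after the crosslink in both, with 8 of 67 positions (11.9%) above and 18.1% below; other starts in the top panel have 1 position each, save the 3 at 1 nt before.

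The 6 bases right after the crosslinked T were also counted without reference to any microRNA. GTGCCT was the most frequent, at 6 of 67 positions in 5 genes (8.96%), and it was also the most frequent over all exonic positions (492, 4.48%). No 7mer-m8 or 8mer of the searched families holds it. The families that were not searched include miR-124, and whether any of them can pair with GTGCCT was not tested. The positions with GTGCCT are therefore not shown to lack a seed match. The windows are shown, with GTGCCT in capitals, because this was the most repeated sequence in the group.
Eif4e, chromosome 3, 138553586, coding sequence: gagacactgctGTGCCTtattggag
Eif4e, chromosome 3, 138559583, 3′ UTR: attacagctgtGTGCCTgcttgttt
Eif4ebp1, chromosome 8, 27275292, 3′ UTR: catacctccttGTGCCTctgtctat
Eif2ak2, chromosome 17, 78852839, 3′ UTR: gtagttactttGTGCCTttgtatgc
Eif1ad, chromosome 19, 5370419, 3′ UTR: cgctctacactGTGCCTtactgggt
Eif3c, chromosome 7, 126557481, coding sequence: atgtggcagatGTGCCTagactgca
All 6 positions were in 2 libraries. ACCAAA, which miR-9 can pair with, followed the crosslink at 4 positions, in Eif4enif1, Eif5, Eif3c and Eif5a2. GCCAAA, which miR-96 and miR-182 can pair with, followed it at 3, in Eif5, Eif4ebp2 and Eif2ak2. Over all exonic positions these were the second and the third most frequent, at 2.89% and 2.68%.

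Sites for miR-216 were present in 5 of the 27 crosslinked genes (18.5%, 6.30 to 38.1), beside 6.84% of all crosslinked protein-coding genes. That interval includes 6.84%. By position, 6 of 75 (8%, 2.99 to 16.6) were linked to a site, beside 2.77% of all positions. The crosslinks of the Eif4g2 site in the 3′ UTR and of the Eif5 site were in 5 libraries, and those of the other 4 were in 2. Only that Eif4g2 site lay in a 3′ UTR; the other 5 lay in coding sequence. Intervals that held the crosslinked base were those of Eef2 and of Eif4g2 in the 3′ UTR. Both positions in 5 libraries also had a 7mer-m8 or 8mer of another family just after the crosslink, of miR-17 in Eif4g2 and of miR-182 in Eif5, whereas the 4 positions in 2 libraries had none.

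The rest of the pathway is given as counts, which stand beside the 22.1% of all protein-coding genes that had crosslinks. These lists were also chosen with earlier results known, and no test was made. Release and recycling factors had crosslinks in 3 of 9 genes, with up to 4 positions (Abce1). Genes of mTOR and kinase signalling to translation had them in 13 of 22, with Sesn3, an inhibitor of mTORC1, at 17 positions. All 13 partners and regulators of the poly(A)-binding protein had crosslinks, led by Larp4b with 12 and Larp1 with 9. Helicases linked to translation had them in 4 of 6, with 11 positions in Ddx3x, and repressors and cap-binding partners in 15 of 16, with 9 in Gigyf1. Ribosomal protein genes, at 17 of 92 (18.5%), were near the 22.1% of all protein-coding genes. Sites for miR-216 in these lists were in Larp4b, 1 of the 13 crosslinked partners and regulators, and Rpl4, 1 of the 17 crosslinked ribosomal protein genes. The other lists had none. Over all crosslinked protein-coding genes the share with a site was 6.84%.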

How the data were processed

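The deposited tables hold a score. In the crosslink table it counts the samples sharing a position, per the file headers. The miR-216 table has no header, and its score was checked against the crosslinks: each of the 394 distinct sites had a position of equal score no more than 15 nt away. Coordinates are mm10, and CASAVA 1.8.2, STAR and bedtools are named in the submitters' processing notes. The authors pooled the 5 Argonaute libraries, and read depth is unknown. The crosslink caller is not given in the sources used here.

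Positions were placed on the same strand with GENCODE M21, with 3′ UTR ranked above coding sequence, both from protein-coding transcripts, and then 5′ UTR, noncoding exon and intron, within the translation factor gene where there was one. Sequence came from spliced transcripts, so the 8 intronic positions were not read. All 10988 exonic positions read fell on T. A site's distance was measured to its nearest crosslink of equal score. Shares have exact 95% intervals (scipy 1.17.1); no set test was made. The search was tested on simulated data. Genes, roles, lists and families were chosen with earlier results of these data known. Named in full are genes with a miR-216 site, with a position in 4 or 5 libraries or among the 10 with the most positions, and up to 2 more per role; the remaining crosslinked genes are named with their counts.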

Additional observations from a re-analysis of the deposited data

How the results depend on the processing

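With positions in 3 or more libraries only, 12 of the 27 crosslinked genes kept a position, beside 2104 of the 4867 crosslinked protein-coding genes. Of the 19 positions counted, 52.6% lay in 3′ UTRs, beside 2409 of all 3598 such positions. The coding share was 36.8%, beside 17.7%, and the share with a seed match just after was 33.3%, beside 38.5%. Sites for miR-216 with a score of 3 or more were in 2 genes, those whose interval held the crosslinked base in 2, and those with a 7mer-m8 in 1. Shares of all crosslinked genes under these 3 settings are not given here. These counts therefore do not show how 18.5% beside 6.84% would change under them. The exact interval of the 18.5% already includes 6.84%. Merging positions within 10 nt changed none of the values recomputed with it, and putting coding sequence first in the annotation left the 3′ UTR share at 37.3%. Leaving out Eif4g2 gave 31.1% in 3′ UTRs, 19.7% in 3 or more libraries and 17% with a seed match. Against 16.4% as reported, seed shares were 11.9% with starts from 0 to 2 nt, 26.9% with any start within 20 nt, 22.4% with 7mer-A1 and 8.96% with 8mers only, beside 22.7%, 35.6%, 32.6% and 14.4% over the table. Without the kinases, methyltransferases and other genes that are no translation factor subunit, 21 of the 27 crosslinked genes remained, and their share of the genes left is not given here. The alternatives for the coding share were chosen after the data were seen, as were leaving out the positions in small nucleolar RNA genes, which left 72 positions in 27 genes, and counting positions in coding sequence or 3′ UTRs only, which left 26 genes. No paired analysis was possible because the values of single libraries were not analysed here, and for the same reason leaving out each library was not run. Depth is unknown, so a gene without a listed position may still be bound.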
